A study of Homo sapiens with 4 samples.

Results

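The zinc finger genes of human chromosome 19 that carry a name of the form ZNF followed by a number (and at most 1 letter) were examined in RNA sequencing libraries of OVCAR3, a line derived from a high-grade ovarian carcinoma of the serous type. The genes were chosen by name, by chromosome and by measured level: of 254 genes of this name form, the 186 with a mean of at least 0.5 FPKM over the 4 libraries are the members, among 60605 genes in all, and 1 further gene of the name form was left out by the rule of choice. FPKM counts sequenced fragments per kilobase of a transcript relative to all mapped fragments of that library, and was added up over all transcripts of a gene. The level over all libraries chose the members. A difference between treatments was no criterion, but it could decide members near the level. ZNF887P, ZNF799, ZNF836, ZNF615, ZNF528 and ZNF540 had DMSO means between 0.446 and 0.494 FPKM, so that their etoposide values carried them past the level. ZNF497 had an etoposide mean of 0.460 FPKM and passed through its DMSO values. Just inside the level stood ZNF321P (mean 0.521 FPKM), ZNF132 (0.543 FPKM) and ZNF540 (0.554 FPKM), and just outside it ZNF426 (0.498 FPKM), ZNF233 (0.484 FPKM) and ZNF555 (0.455 FPKM).

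The 2 groups were cells given 1.7 µM etoposide for 24 h and cells given the DMSO vehicle, with 2 libraries each that were labelled as biological replicates. Both groups had been arrested beforehand with nocodazole (100 ng/mL, 16 h) and released for 3 h, so that the DMSO cells were not untreated cells. Etoposide is a poison of topoisomerase II that leaves DNA double-strand breaks, and the comparison asks how the transcriptome of these cells differed after such damage. OVCAR3 is 1 cell line. The deposited values imply 9.54 and 11.7 Gb of mapped sequence in the etoposide libraries and 12.9 and 13.3 Gb in the DMSO libraries. All 10 markers of serous ovarian carcinoma were at 1 FPKM or more in every library, while 6 of 8 markers of leukocytes, endothelium, fibroblasts and mesothelium were under 1 FPKM in every library, and the exceptions were the collagen genes COL1A1 (at most 6.11 FPKM) and COL1A2 (at most 2.01 FPKM). The leukocyte markers PTPRC and CD3E were at most 0.0715 and 0.0483 FPKM. The sum of the 8 was 8.88 and 8.56 FPKM in etoposide libraries and 7.04 and 7.08 FPKM in DMSO libraries, where COL1A1 was higher in etoposide libraries (6.11 and 5.80 FPKM, against 4.36 and 4.42 FPKM in DMSO libraries) and COL1A2 was lower (1.68 and 1.81 FPKM, against 1.95 and 2.01 FPKM in DMSO libraries). The sum of the 10 carcinoma markers was 2089 and 2160 FPKM in etoposide libraries and 3027 and 2679 FPKM in DMSO libraries. Its largest parts were KRT8 (772 and 821 FPKM, against 1266 and 1055 FPKM in DMSO libraries) and KRT18 (611 and 639 FPKM, against 944 and 835 FPKM). EPCAM was higher in etoposide libraries (127 and 134 FPKM, against 124 and 125 FPKM), WT1 and CDH1 overlapped, and the other carcinoma markers were lower. The part of either list in the results below was not tested. The 4 libraries did not behave alike for transcripts of different base composition. DMSO replicate 1 was low for long and AT-rich transcripts, so that the main results are given with and without it.

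A ZNF protein of this kind is a chain of C2H2 zinc fingers, each a short fold held by a zinc ion between a pair of cysteines and a pair of histidines, and neighbouring fingers read neighbouring stretches of DNA. Most of the chromosome 19 genes also encode a KRAB box, which binds TRIM28 (KAP1), and TRIM28 in turn brings the histone H3 lysine 9 methyltransferase SETDB1 and HP1 proteins to the bound DNA. These repressors are known above all for silencing retrotransposons, and they arose through repeated local duplication, which left them in clusters along the chromosome. Of the 186 members, 183 had a coding sequence in the annotation used, with a median of 13 fingers per protein and a range of 1 to 29 fingers. ZNF414 and ZNF428 had 1 finger that matched the pattern searched, and ZNF850 had 29. A KRAB pattern was found in 154 proteins and was not found in 29, and the remaining 3 members (ZNF321P, ZNF56 and ZNF887P) had no coding sequence. The leading transcripts, meaning the transcript of each gene with the highest mean level, were long (median 3882 bases) and AT-rich, with a median GC content of 42.6%. Over all 22185 genes tested, which needed a mean of only 0.1 FPKM, the medians were 2154 bases and 48.1%. Over the 15706 genes at 0.5 FPKM or more they were 2672 bases and 48.1%.

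Fingers of the same spacing differ from member to member in residues and in base composition. Base composition matters here because the differences between treatments and between the DMSO libraries followed GC content. The stretches below show the coding sequence of the first finger that is followed by the linker TGEKP, from its first cysteine to the end of the linker (78 bases, 26 codons). Members with such a stretch were classed by the GC content of the leading transcript. The 3 most abundant under 45% and the 3 most abundant of the 7 at 55% or more are shown. More abundant GC-rich members without such a stretch, such as ZNF358, are not. The 15 bases in capitals encode the linker. They were read from GRCh38 at chr19:36236660-36236737 (ZNF146, plus strand), chr19:53576957-53577034 (ZNF331, plus strand), chr19:40036283-40036360 (ZNF780B, minus strand), chr19:56088809-56088886 (ZNF787, minus strand), chr19:55614672-55614749 (ZNF865, plus strand) and chr19:58456055-58456132 (ZNF324B, plus strand), all within coding exons.
ZNF146: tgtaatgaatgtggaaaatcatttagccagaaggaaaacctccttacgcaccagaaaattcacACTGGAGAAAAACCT
ZNF331: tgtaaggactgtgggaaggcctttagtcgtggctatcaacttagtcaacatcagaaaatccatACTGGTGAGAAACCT
ZNF780B: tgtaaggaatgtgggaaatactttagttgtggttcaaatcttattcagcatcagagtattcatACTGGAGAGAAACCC
ZNF787: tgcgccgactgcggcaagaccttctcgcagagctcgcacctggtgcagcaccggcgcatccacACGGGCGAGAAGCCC
ZNF865: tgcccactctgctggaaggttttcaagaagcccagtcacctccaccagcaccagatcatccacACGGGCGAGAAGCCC
ZNF324B: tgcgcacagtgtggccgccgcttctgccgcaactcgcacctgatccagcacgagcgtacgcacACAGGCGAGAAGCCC
The first 3 stretches had a GC content of 38.5%, 43.6% and 37.2%, and the last 3 of 69.2%, 59.0% and 66.7%. Such a stretch was found in 153 members, where its GC content ranged between 33.3% and 71.8% with a median of 42.3%. The classes overlapped in it: it ranged from 33.3% to 57.7% in the 119 members with leading transcripts under 45% GC. In the 7 at 55% or more it ranged from 37.2% to 71.8%.

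Most members were measured at low levels, with a median of 2.24 FPKM in etoposide and 2.04 FPKM in DMSO cells. Summed over the 186 members, the level was 793 and 796 FPKM in the etoposide libraries, against 668 and 730.5 FPKM in the DMSO libraries. Expressed as a share of all transcripts (TPM), the members held 0.186% and 0.190% in the etoposide libraries and 0.147% and 0.169% in the DMSO libraries. Both etoposide values therefore lay above both DMSO values on each scale, and the gap between the DMSO libraries was wider than that between the etoposide libraries. ZNF146, a protein of zinc fingers with no KRAB box, was the most abundant member with 83.1 and 82.5 FPKM in etoposide libraries, against 61.4 and 80.0 FPKM in DMSO libraries. Only DMSO replicate 1 stood apart from the other 3 libraries for this gene. ZNF331, an imprinted KRAB gene, followed with 44.1 and 43.9 FPKM in etoposide libraries, against 35.1 and 38.0 FPKM in DMSO libraries. ZNF875 was next and overlapped between the groups, with 35.8 and 36.6 FPKM in etoposide libraries and 36.8 and 33.7 FPKM in DMSO libraries. ZNF317 also overlapped, with 22.6 and 22.4 FPKM in etoposide libraries and 20.1 and 22.5 FPKM in DMSO libraries.

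**Figure D1:**
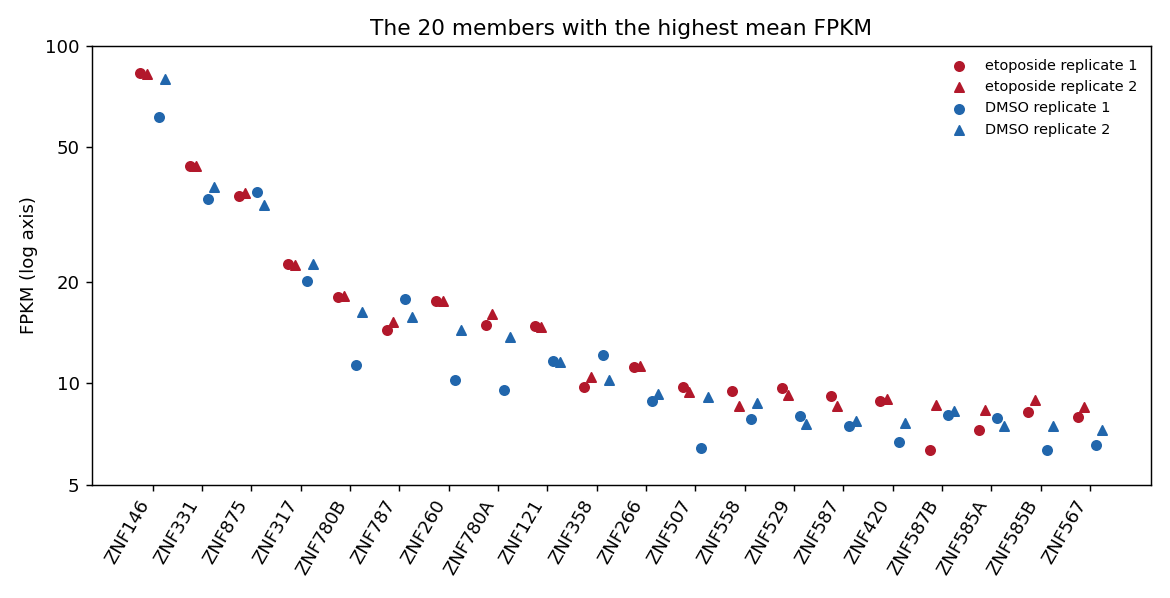
FPKM (log axis) of the 20 members with the highest mean level in each library, with etoposide libraries in red and DMSO libraries in blue, circles for replicate 1 and triangles for replicate 2. ZNF146 stood highest, at 83.1 and 82.5 FPKM in etoposide libraries and 61.4 and 80.0 FPKM in DMSO libraries, and DMSO replicate 1 was the low point for ZNF146, ZNF780B, ZNF260 and ZNF780A.

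In the comparison of etoposide with DMSO, 156 of the 186 members had a higher mean on the log2(FPKM + 0.1) scale, with a median log2 fold change of 0.20, against 0.04 over all genes tested. Both etoposide libraries lay above both DMSO libraries for 115 members (61.8%), where 28.9% of all genes tested did so, and below both for 7 members (3.76%), where 19% of all genes did so. Of all genes at 0.5 FPKM or more, 31.7% lay above and 20.1% below. The other 64 members overlapped between the groups. In RNA of whole cultures, a different share of cells that express a gene and a different amount of its RNA per cell cannot be told apart. At least 1.2-fold higher levels were found for 70 members, against 19.3% of all genes, and at least 1.2-fold lower levels for 3 members, against 12.4% of all genes. The differences were small: on the same scale 6 members were at least 1.5-fold higher and 1 was at least 1.5-fold lower, while by the ratio of mean FPKM, with no pseudocount, 8 and 1 were. When p-values of limma's moderated test were adjusted by Benjamini-Hochberg over 22185 genes, 0 members and 0 genes (0% of those tested) passed an adjusted p of 0.05, and the smallest adjusted p of a member was 0.311. At an unadjusted p under 0.05, 38 members were higher and 2 were lower, against 1566 and 1077 of all genes. The fold changes of single members below are therefore given as measured values that did not pass the test.

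The pattern depended on which DMSO library was the reference. DMSO replicate 1 was the lowest of the 4 libraries for 121 members (65.1%), against 35.7% of all genes, and DMSO replicate 2 was the lowest for 37 members (19.9%). Between the DMSO libraries, replicate 2 exceeded replicate 1 by a median log2 difference of 0.12 over the members, while the median over all genes was under 0.01. The etoposide libraries differed by a median of 0.01 over the members. Without DMSO replicate 2, so that replicate 1 alone was the reference, the median log2 fold change of the members was 0.27, with 153 members higher. That of all genes was then 0.04. Such a fit takes its spread from the etoposide libraries alone, so that no conclusion is drawn from its test. Without DMSO replicate 1, the median log2 fold change of the members was 0.11, with 150 members higher, while that of all genes was 0.03. Both etoposide libraries then lay above DMSO replicate 2 for 129 members, against 43.9% of all genes, and below it for 18 members, against 31.2% of all genes. After a correction of every library for transcript length and GC content over all genes, the members' median was 0.07, with 128 members higher, and that of all genes was below 0.01 in size. Corrected etoposide values lay above both corrected DMSO values for 67 members, against 23.6% of all genes, and below for 8 members, against 24.8%. All 67 had also been above before the correction. With the correction and without DMSO replicate 1 together, the median was again 0.07 and 129 members were higher.

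The differences followed the base composition of the transcripts. Among the 48 members with a GC content under 40%, all 48 were higher in etoposide cells, with a median log2 fold change of 0.32, and for 40 of them both etoposide libraries lay above both DMSO libraries. Of all 3419 genes tested under 40% GC, 75.6% were higher and 46.5% lay above without overlap. The median was 0.20 for the 83 members of 40% to under 45% GC and 0.16 for the 26 members of 45% to under 50% GC. Among the 29 members of 50% GC or more, 9 were higher, and the median was −0.13. All genes tested showed the same order with smaller medians, at 0.17, 0.10, 0.04 and −0.04 for the 4 classes. DMSO replicate 2 minus replicate 1 gave medians of 0.23, 0.13, 0.10 and −0.08 for the members of the 4 classes, in the same order as the difference between treatments. Without DMSO replicate 1, the members' medians were 0.20, 0.13, 0.10 and −0.02, and after the correction they were 0.10, 0.07, 0.08 and −0.04. Across the 186 members, Spearman's rho between GC content and the log2 fold change was −0.56 with all libraries, −0.39 without DMSO replicate 1 and −0.26 after the correction, as a description over genes that share the same 4 libraries. Length followed in the other direction (rho 0.34), and the 28 members with the longest leading transcripts were all higher, with a median of 0.30. The part of sequencing composition in these differences was not tested beyond the correction and the left-out library.

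**Figure D2:**
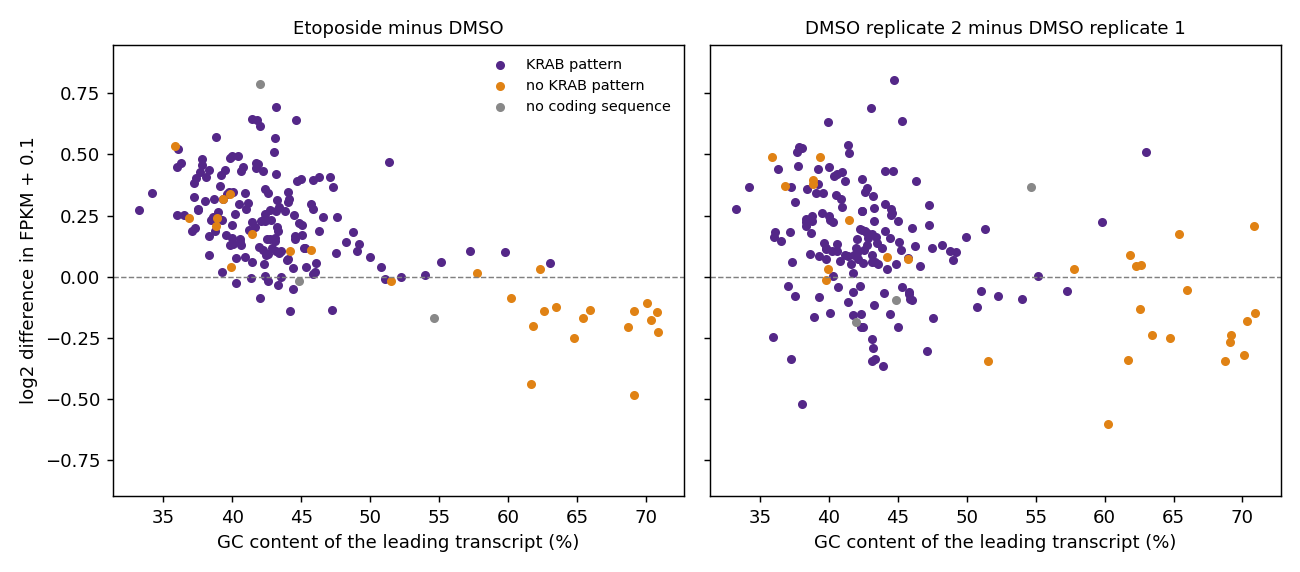
Log2 difference of each member against the GC content of its leading transcript (%), for etoposide minus DMSO (left) and DMSO replicate 2 minus replicate 1 (right), with members with a KRAB pattern in purple, without it in orange and without a coding sequence in grey. Both clouds slope down with GC content (rho −0.56 on the left, −0.37 on the right), and ZNF497, at −1.65 on the left, lies outside the axis.

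**Figure D3:**
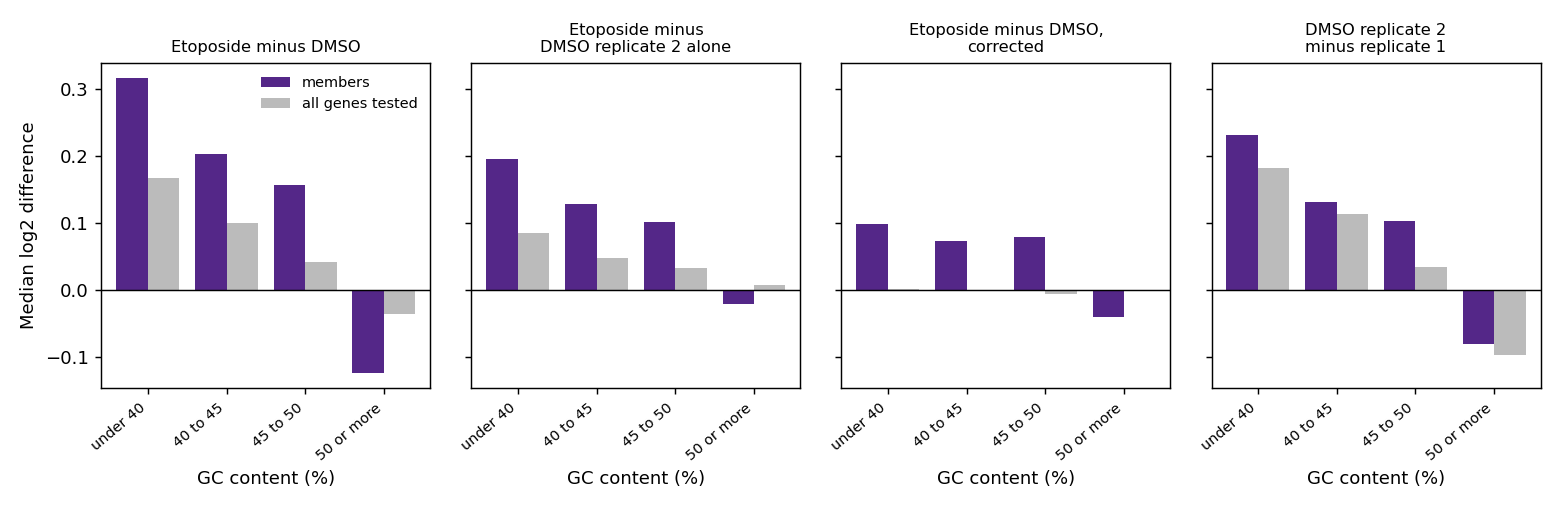
Median log2 difference by class of GC content (%) for the members (purple) and all genes tested (grey), in 4 panels: etoposide minus DMSO, etoposide minus DMSO replicate 2 alone, etoposide minus DMSO after the length and GC correction, and DMSO replicate 2 minus replicate 1. The members' median under 40% GC was 0.32, 0.20, 0.10 and 0.23 in the 4 panels.

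KRAB and other members were unequal in these measures. Of the 154 members with a KRAB pattern, 143 were higher in etoposide cells, with a median log2 fold change of 0.23. Both etoposide libraries exceeded both DMSO libraries for 106 (68.8%), and 0 lay below, against 28.9% and 19% of all genes tested. Their median GC content was 42.4%, and 35.8% of all genes of 40% to under 45% GC lay above. Of the 29 without the pattern, 12 were higher, with a median of −0.11. These 29 formed 2 sets by GC content. The 10 under 50% GC, with ZNF146, ZNF260, ZNF121 and ZNF507 among them, were all higher (median 0.22), and of the 19 at 50% GC or more, 2 were higher (median −0.15). The 9 KRAB members at 50% GC or more had a median of 0.06. After the correction the KRAB members had a median of 0.09 and the others −0.04. Corrected values then lay above for 65 KRAB members and below for 3, against 23.6% and 24.8% of all genes.

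Among the abundant AT-rich members, ZNF260 gave 17.6 and 17.6 FPKM in etoposide libraries, against 10.2 and 14.3 FPKM in DMSO libraries. Its log2 fold change of 0.54 ± 0.16 (SE, adjusted p = 0.358) came to 0.29 both when DMSO replicate 1 was left out and after the correction. ZNF780B gave 18.0 and 18.1 FPKM in etoposide libraries, against 11.3 and 16.3 FPKM in DMSO libraries, and its neighbour ZNF780A gave 14.9 and 16.0 FPKM in etoposide libraries, against 9.56 and 13.7 FPKM in DMSO libraries. Both stood about 0.51 to 0.53 log2 units lower in DMSO replicate 1 than in replicate 2, and their log2 fold changes of 0.41 and 0.43 were 0.15 and 0.17 without replicate 1. DMSO replicate 2 was above replicate 1 for 40 of the 48 members under 40% GC. For ZNF121 the DMSO libraries were alike. It measured 14.7 and 14.6 FPKM in etoposide libraries, against 11.6 and 11.5 FPKM in DMSO libraries, with a log2 fold change of 0.34 ± 0.08 (SE, adjusted p = 0.311), 0.35 without DMSO replicate 1 and 0.12 after the correction. ZNF331 had a log2 fold change of 0.27 with all libraries, 0.21 without DMSO replicate 1 and 0.15 after the correction.

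The largest positive fold changes belonged to members of low level. ZNF887P, a pseudogene, gave 0.742 and 0.954 FPKM in etoposide libraries, against 0.482 and 0.411 FPKM in DMSO libraries (log2 fold change 0.79 ± 0.21, SE). ZNF836 gave 0.937 and 0.788 FPKM in etoposide libraries, against 0.481 and 0.506 FPKM in DMSO libraries (0.69 ± 0.18). ZNF799 gave 0.746 and 0.788 FPKM in etoposide libraries, against 0.453 and 0.459 FPKM in DMSO libraries (0.64 ± 0.18). In both, the lower etoposide library stood above the higher DMSO library. The DMSO means of ZNF887P, ZNF836 and ZNF799 were 0.446, 0.494 and 0.456 FPKM, under the 0.5 FPKM required. Their etoposide values carried them past it, a choice that favours a positive difference. ZNF823 gave 1.47 and 1.27 FPKM in etoposide libraries, against 0.827 and 0.890 FPKM in DMSO libraries (0.62 ± 0.16). For these 4 members, singled out after their values were seen, the groups did not overlap, and the log2 fold changes were between 0.57 and 0.88 without DMSO replicate 1 and between 0.54 and 0.74 after the correction. ZNF471 (0.65) and ZNF460 (0.64), which come between ZNF836 and ZNF799 in size, were at 0.39 and 0.43 without DMSO replicate 1 and to 0.46 and 0.54 after the correction. ZNF471, ZNF460, ZNF615, ZNF506, ZNF260 and ZNF738 completed the 10 largest, with log2 fold changes between 0.52 and 0.65. Adjusted p-values of the 10 members were between 0.323 and 0.407 in limma's test. Part of the transcript of ZNF887P (37.2% of its 100-base windows), of ZNF799 (28.2%) and of ZNF836 (11.5%) is also found in other annotated genes, so that the reads of these members cannot be assigned with certainty.

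The largest negative fold changes were in GC-rich members. ZNF524 gave 1.74 and 1.78 FPKM in etoposide libraries, against 2.76 and 2.28 FPKM in DMSO libraries, with a log2 fold change of −0.49 ± 0.14 (SE, adjusted p = 0.347), −0.35 without DMSO replicate 1 and −0.34 after the correction. ZNF580 gave 3.16 and 3.99 FPKM in etoposide libraries, against 5.48 and 4.30 FPKM in DMSO libraries, and its −0.44 ± 0.17 became −0.27 without DMSO replicate 1. ZNF787 gave 14.4 and 15.1 FPKM in etoposide libraries, against 17.8 and 15.7 FPKM in DMSO libraries (−0.18 ± 0.10), and was at −0.09 without DMSO replicate 1. ZNF784, ZNF865, ZNF444, ZNF581, ZNF56 and ZNF653 were between −0.25 and −0.17. Without DMSO replicate 1, ZNF784 was at −0.13, ZNF865 at −0.15 and ZNF444 at −0.04, while ZNF581 was at −0.25, ZNF653 at −0.26 and ZNF56 at −0.35. ZNF358 (69.2% GC), also among the 10 most abundant, gave 9.72 and 10.4 FPKM in etoposide libraries and 12.1 and 10.2 FPKM in DMSO libraries, which overlap. ZNF875 (50.8% GC), likewise among those 10, overlapped too, with a log2 fold change of 0.04. ZNF497 had the lowest fitted value (−1.65), which comes from a single library: it was at 0.919 FPKM and listed at 0 in the etoposide libraries, against 0.886 and 0.917 FPKM in the DMSO libraries. Without that etoposide library its log2 fold change was 0.03. It was the only member listed at 0 in a library.

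When genes of the name form within 1 Mb of each other were joined, 13 clusters held members, and 182 members lay in the 10 clusters with at least 3. All 10 had a median log2 fold change above 0 with all libraries, without DMSO replicate 1 and after the correction, but their sizes differed. The highest medians were in cluster 9 (39.98 to 40.09 Mb, ZNF546, ZNF780B and ZNF780A) at 0.41 and in cluster 5 (19.67 to 24.13 Mb) at 0.36, and the lowest were in cluster 13 (55.48 to 58.48 Mb) at 0.11 and cluster 1 (2.82 to 2.94 Mb) at 0.10. Clusters 9 and 5 also had the lowest median GC content with 38.0% and 37.3%, against 46.0% in cluster 13. Without DMSO replicate 1, cluster 9 was at 0.17 and cluster 5 at 0.21, and after the correction they were at 0.15 and 0.11. The medians of the 10 clusters then ranged between 0.02 and 0.15.

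**Figure D4:**
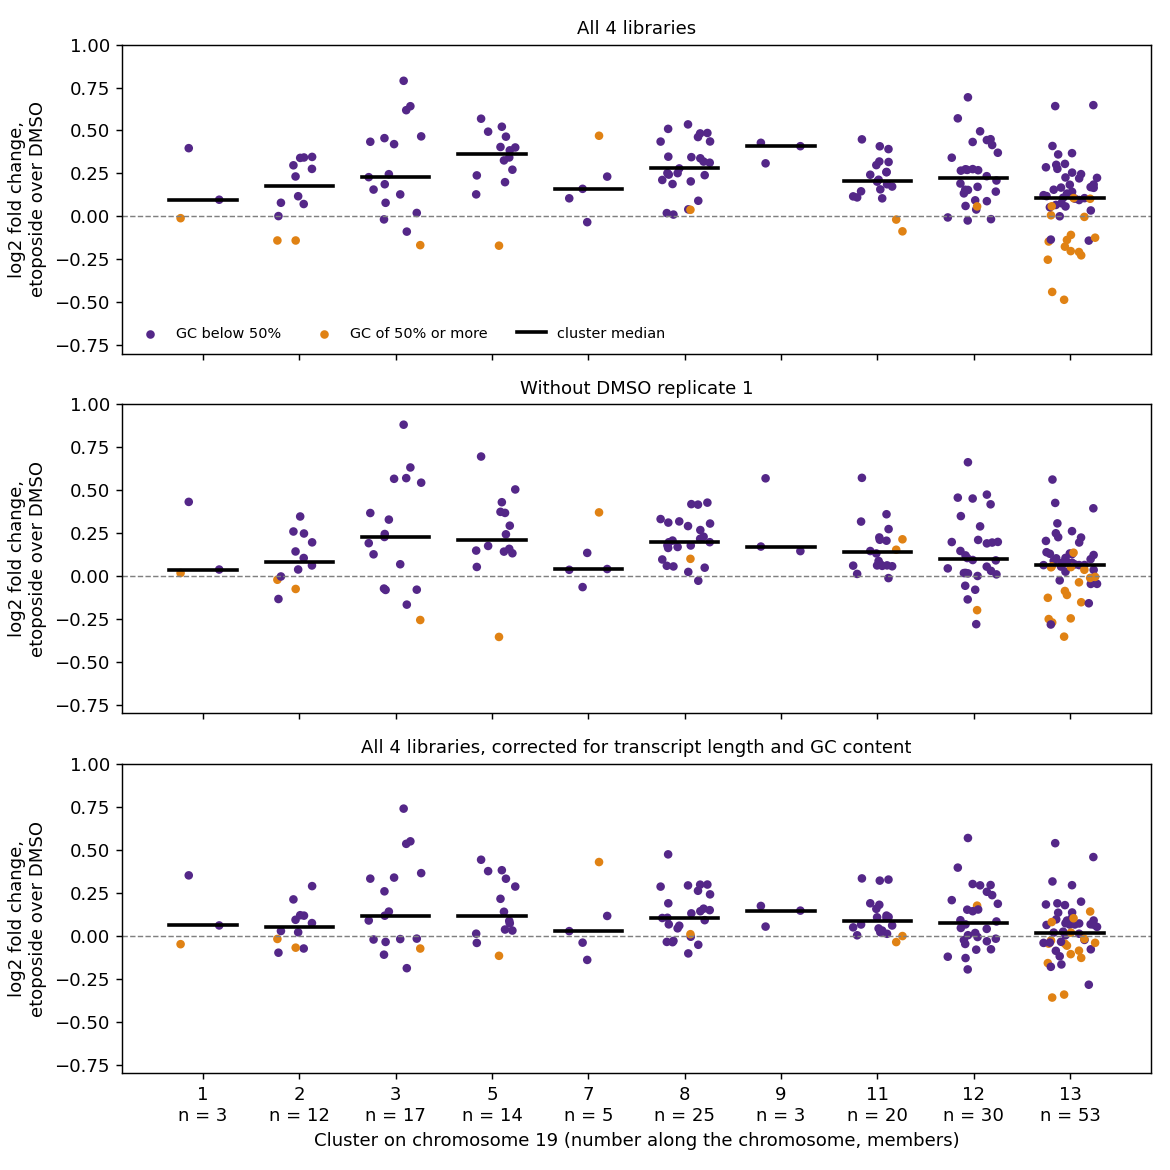
Log2 fold change (etoposide over DMSO) of each member in the 10 clusters with at least 3 members, numbered along chromosome 19, with all libraries (top), without DMSO replicate 1 (middle) and after the length and GC correction (bottom), where purple points have a GC content below 50%, orange points have 50% or more, and bars are cluster medians. The median of cluster 9 was 0.41, 0.17 and 0.15 in the 3 panels, and ZNF497 in cluster 13 lies below the axis.

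Cluster 5, next to the centromere on the short arm, had the smallest share of genes at the required level among the 13 clusters with a member, with 14 of its 34 genes of the name form (41.2%), against 53 of 60 (88.3%) in cluster 13. Of its 14 members, 13 were higher in etoposide cells and 12 lay above without overlap, against 28.9% of all genes and 46.5% of all genes under 40% GC. ZNF682 was its most abundant member and overlapped, with 2.86 and 3.77 FPKM in etoposide libraries and 3.22 and 2.52 FPKM in DMSO libraries. ZNF675, known as an inhibitor of TRAF6 signalling to NF-kB, gave 2.21 and 2.27 FPKM in etoposide libraries, against 1.36 and 1.88 FPKM in DMSO libraries. ZNF91 and ZNF93, which silence SVA and L1 retrotransposons, and ZNF43 were not members: ZNF91 was at 0.0431 and 0.0374 FPKM in etoposide libraries and 0.0174 and 0.0284 FPKM in DMSO libraries, and the means of ZNF93 and ZNF43 were 0.0287 and 0.0183 FPKM. Over the whole chromosome, 68 genes of the name form were below the level, 48 of them under 0.1 FPKM and 6 of them listed at 0 in all 4 libraries.

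Cluster 8 (36.18 to 37.82 Mb) held 25 members, which were all higher in etoposide cells (median 0.28), and 20 lay above without overlap, against the same 28.9% and 46.5%. Of the 25, 19 remained higher after the correction (median 0.11). ZNF420, a KRAB zinc finger gene also known as Apak, gave 8.86 and 8.98 FPKM in etoposide libraries, against 6.70 and 7.59 FPKM in DMSO libraries (0.32 ± 0.10, adjusted p = 0.375). ZNF382, a repressor often methylated in tumours, gave 1.47 and 1.49 FPKM in etoposide libraries, against 1.25 and 1.30 FPKM in DMSO libraries. In cluster 3 (11.48 to 12.64 Mb), 14 of 17 members were higher, the median was 0.23 both with and without DMSO replicate 1, and the most abundant member ZNF627 overlapped, with 4.21 and 4.23 FPKM in etoposide libraries and 4.11 and 4.44 FPKM in DMSO libraries. In cluster 12 (51.57 to 53.58 Mb), 27 of 30 members were higher (median 0.22, and 0.10 without DMSO replicate 1). ZNF350, known as ZBRK1, a partner of BRCA1 in repression, belongs here and overlapped between the groups, with 1.34 and 1.07 FPKM in etoposide libraries and 0.983 and 1.28 FPKM in DMSO libraries. ZNF175 also overlapped, with 1.46 and 1.30 FPKM in etoposide libraries and 1.11 and 1.36 FPKM in DMSO libraries. In cluster 11 (43.53 to 45.08 Mb), 18 of 20 members were higher (median 0.21), and ZNF227 was at 6.49 and 6.94 FPKM in etoposide libraries, against 5.27 and 6.42 FPKM in DMSO libraries. ZNF224, a repressor of the aldolase A gene, lies in the same cluster with 4.07 and 3.82 FPKM in etoposide libraries, against 3.16 and 3.40 FPKM in DMSO libraries. In cluster 2 (7.07 to 9.79 Mb), 10 of 12 members were higher (median 0.17), and in clusters 7 (34.54 to 34.96 Mb) and 1 the most abundant members, ZNF30 and ZNF77, had log2 fold changes of 0.10 each.

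Cluster 13 was split along its length, a division made after its values were seen. Its first 9 members in chromosomal order, from ZNF628 to ZNF444 (chr19:55476617-56160893, GRCh38), were all lower in etoposide cells, with a median log2 fold change of −0.21, and the 7 members of the whole chromosome with both etoposide libraries below both DMSO libraries were all among them: ZNF579, ZNF524, ZNF865, ZNF784, ZNF580, ZNF581 and ZNF787. The 9 are the members before the first one of the cluster with a KRAB pattern, so that the lack of the pattern is fixed by the division. Their leading transcripts had a GC content of 61.7% to 70.9%. Of the other 44 members of the cluster, 37 were higher, with a median of 0.13. Of these 44, 25 (56.8%) lay above without overlap, against 28.9% of all genes tested. The 9 were still all lower without DMSO replicate 1 (median −0.15) and after the correction (median −0.11). After the correction 4 of the 9 lay below without overlap, against 24.8% of all genes tested. Among 1063 other genes with a GC content and a length in the same ranges, 715 were lower with all libraries, with a median of −0.09, and the median was 0.00 without DMSO replicate 1. Both etoposide libraries lay below both DMSO libraries for 364 of these 1063 genes (34.2%), and after the correction for 296 of them. Within the span of the 9 lie 7 other genes of at least 0.5 FPKM, with a median of −0.07, of which 5 were lower. Their median was 0.06 without DMSO replicate 1, with 6 of the 7 higher, and 0.03 after the correction, with 5 higher.

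**Figure D5:**
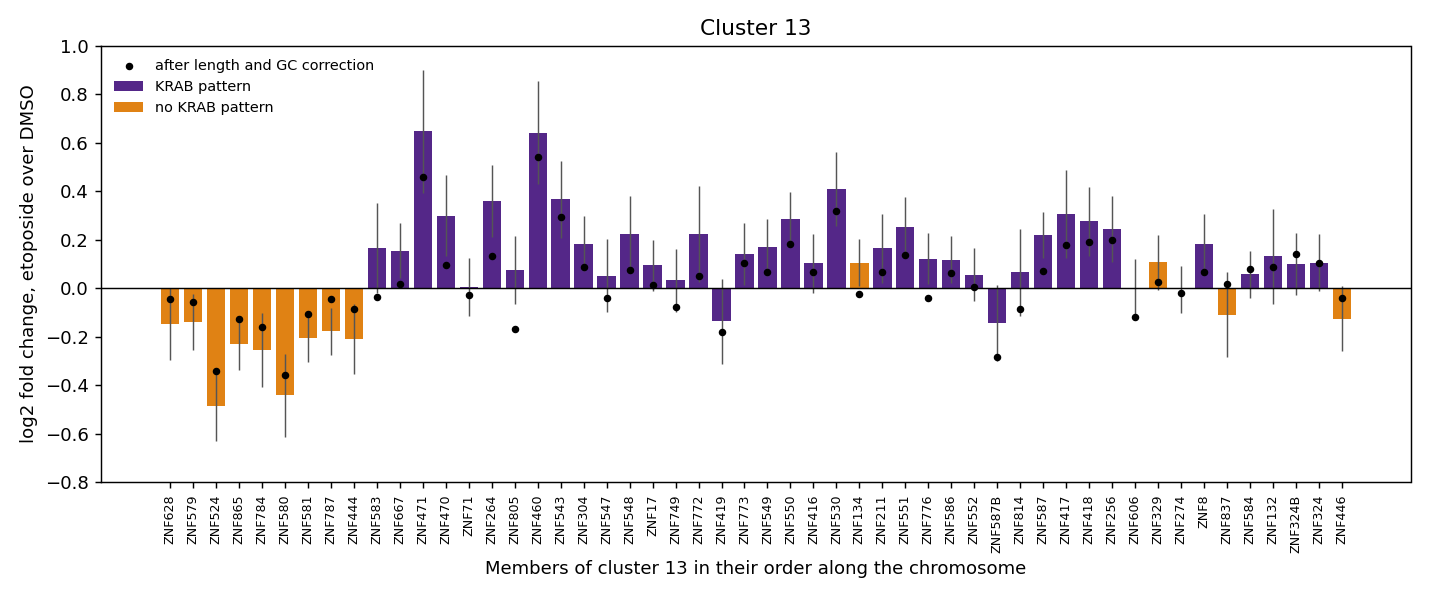
Log2 fold change (etoposide over DMSO, bars with the standard error from limma) of the members of cluster 13 in their order along the chromosome, in purple with a KRAB pattern and in orange without it, and the value after the length and GC correction as black points. The first 9 bars, ZNF628 to ZNF444, all lie below 0 (median −0.21), and ZNF497 is not drawn because it was listed at 0 in 1 library.

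Further along cluster 13 lie ZNF274, which binds other zinc finger genes and recruits SETDB1 to them, and the close relatives ZNF417 and ZNF587, which repress HERV-K. ZNF274 overlapped between the groups, with 6.04 and 6.12 FPKM in etoposide libraries and 6.27 and 5.93 FPKM in DMSO libraries. ZNF587 gave 9.15 and 8.53 FPKM in etoposide libraries, against 7.44 and 7.70 FPKM in DMSO libraries, while ZNF417 overlapped, with 5.18 and 4.22 FPKM in etoposide libraries and 3.23 and 4.39 FPKM in DMSO libraries. ZNF417 and ZNF587 share 23.5% and 14.7% of their 100-base windows with other genes, each other included. ZNF304, a transcriptional repressor with a KRAB box, gave 3.46 and 3.50 FPKM in etoposide libraries, against 2.92 and 3.19 FPKM in DMSO libraries.

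Sequence that is shared between genes limits what can be said of some members. For 43 members, 5% or more of the 100-base windows of the leading transcript were also found in other annotated genes, and for 22 members 5% or more of its bases lay opposite an exon on the other strand, where reads cannot be told apart if strand was not used. ZNF625 and ZNF20 share most of their windows (74.5% and 72.8%) with an annotated read-through transcript of both, and ZNF625 differed between its etoposide libraries, at 0.713 and 1.89 FPKM, against 1.07 and 1.24 FPKM in DMSO libraries. Among the 125 members with under 5% of either kind, 108 were higher, and the median log2 fold change was 0.21. Without overlap, 81 (64.8%) lay above and 6 (4.8%) below, against 28.9% and 19% of all genes tested. The leading transcript was the same in all 4 libraries for 132 members, and the leading transcripts of ZNF573 (237 bases), ZNF611 (495 bases) and ZNF585A (596 bases) were short forms.

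The upstream sequence of the members was compared as a feature that the choice did not use. RefSeq promoters (GRCh38.p14, 250 bases before to 50 bases after the start, 300 bases in all) were matched by symbol for 166 members and had a median GC content of 61.0%, above the 42.6% of the leading transcripts. The median was 58.3% for the 27305 promoters of all genes in the table, 65.3% for those of genes at 0.5 FPKM or more and 66.0% for other chromosome 19 genes of that level. The letters CCGGAAG, the core that many ETS family factors bind, or CTTCCGG on the other strand, were found in 75 of the 166 promoters (45.2%), against 10.7% of all promoters and 19.3% of those of genes at 0.5 FPKM or more. The share was 43.8% among 48 genes of the name form below the level and 37.4% among 182 ZNF genes on other chromosomes. The promoters of the 2 most abundant members with a match are shown because the fold changes of their genes had opposite signs, with the matches in capitals. They lie at chr19:56121246-56121545 (ZNF787, minus strand, 3 matches) and chr19:40090894-40091193 (ZNF780A, minus strand, 1 match).
ZNF787: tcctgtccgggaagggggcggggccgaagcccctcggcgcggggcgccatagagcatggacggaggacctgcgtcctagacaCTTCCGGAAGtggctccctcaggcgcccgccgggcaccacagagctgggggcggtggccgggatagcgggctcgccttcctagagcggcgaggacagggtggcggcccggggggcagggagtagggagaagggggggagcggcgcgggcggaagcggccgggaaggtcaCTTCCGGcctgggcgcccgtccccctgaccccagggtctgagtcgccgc
ZNF780A: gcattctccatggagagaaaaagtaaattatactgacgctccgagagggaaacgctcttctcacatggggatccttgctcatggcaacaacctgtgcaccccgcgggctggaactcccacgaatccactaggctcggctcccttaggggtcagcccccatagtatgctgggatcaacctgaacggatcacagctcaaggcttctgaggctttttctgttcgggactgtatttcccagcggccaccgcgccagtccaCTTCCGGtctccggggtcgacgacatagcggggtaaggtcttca
Members with a match had a median log2 fold change of 0.17 and those with a promoter but no match of 0.21, and a match in these letters describes the sequence and does not show that a factor binds.

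Other sets of genes were placed beside the members. The 226 ZNF genes of the same name form and level on other chromosomes had a median log2 fold change of 0.12, with 163 higher. Without overlap, 97 (42.9%) lay above and 32 (14.2%) below, against 28.9% and 19% of all genes tested. Their median GC content was 45.5%. After the correction their median was 0.02. The 861 other genes of chromosome 19 at 0.5 FPKM or more were GC-rich (59.9%) and had a median of −0.06, with 138 (16.0%) above and 278 (32.3%) below. Without DMSO replicate 1 their median was −0.0031, with 334 above and 314 below, against 43.9% and 31.2% of all genes. After the correction it was −0.015, with 224 above and 245 below, against 23.6% and 24.8%. Of the zinc finger genes of chromosome 19 with other names, 6 of 14 listed were at the required level, and 4 of them were higher, ZFP30 and ZFP28 by 0.40 and 0.39. No test of the difference between these sets was made. ZNF268, a related gene that lies on chromosome 12 and is no member, gave 7.15 and 7.45 FPKM in etoposide libraries and 4.50 and 6.98 FPKM in DMSO libraries.

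The cofactors of KRAB proteins were followed with a list of 24 genes, all of which were tested, and 0 passed an adjusted p of 0.05 (0.342 to 0.986 in limma's test). Without overlap, 5 lay above and 7 below, against 28.9% and 19% of all genes. The median log2 fold change was 0.03 with all libraries (15 of 24 higher), −0.02 without DMSO replicate 1 (10 higher) and −0.05 after the correction (7 higher). TRIM28, the corepressor that KRAB boxes bind, gave 101 and 99.6 FPKM in etoposide libraries, against 112 and 105 FPKM in DMSO libraries. SETDB1 gave 16.7 and 16.4 FPKM in etoposide libraries, against 17.3 and 17.2 FPKM in DMSO libraries. Both were lower in etoposide cells without overlap, by 0.11 and 0.06 on the log2 scale. TRIM28 was at −0.06 without DMSO replicate 1 and −0.05 after the correction, and SETDB1 was at −0.06 and −0.11. The HP1 gene CBX5 was the largest of the list in size, with 46.1 and 47.5 FPKM in etoposide libraries, against 27.6 and 37.9 FPKM in DMSO libraries (0.53 ± 0.15), and was at 0.31 without DMSO replicate 1. The other HP1 genes, CBX1 and CBX3, had log2 fold changes of 0.00 and 0.09. DNMT1, the maintenance DNA methyltransferase, gave 40.9 and 41.4 FPKM in etoposide libraries, against 32.7 and 35.6 FPKM in DMSO libraries (0.27 ± 0.08), with 0.21 without DMSO replicate 1 and 0.25 after the correction.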

How the data were processed

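RNA of OVCAR3 cells was sequenced in 4 libraries, 2 per treatment, from a kit that keeps strand, with paired reads of 100 bases. The authors used HISAT2 for alignment to GRCh38, and StringTie 2.1.7 quantified the transcripts of Ensembl release 104 only, without a setting for strand. Coverage, FPKM (relative to mapped bases) and TPM were deposited for each transcript. The authors' DESeq2 analysis used counts, which were not used here. The study's sequencing methods speak of transfected and mutant cells, which does not match the labels.

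FPKM were summed per gene. With FPKM in place of counts, limma 3.58.1 (R 4.3.3) was fitted to log2(FPKM + 0.1) of the 22185 genes whose mean reached 0.1 FPKM. The model held 1 treatment term (etoposide over DMSO), moderation was trended and robust, and p-values were adjusted by Benjamini-Hochberg. Fold changes on this scale understate those of low genes, and genes of low level rest on few fragments. The FPKM carry no counts, so that no counting interval was made. With 2 libraries per group, an exact permutation test of a single value cannot go below a two-sided p of 0.333, and none was run. The correction was a loess (span 0.3) of each library's deviation from the gene mean on log2 length and GC content of the leading transcript. The fit and the correction were first tried on simulated data. For the correction only a trend with length was simulated, so that its GC part was not tested there. Coding sequences came from GENCODE release 44 on GRCh38, where 228064 of 234583 shared transcripts had identical coordinates. Fingers were counted by the spacing of their cysteines and histidines, and KRAB boxes by a short amino acid pattern, which can miss diverged boxes. Promoters came from RefSeq.

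The members and lists were chosen with earlier results of these data known. Members named in the text are the 10 most abundant, the 10 largest and 10 smallest fold changes, the 3 on either side of the level, the most abundant of each cluster, and genes of known role, and further members were named after their values were seen. Alternatives were other pseudocounts and filters, TPM, median scaling, no variance trend, the correction, the replicate number as a block, each library left out, other member levels and a cluster gap of 0.5 Mb. Added after seeing the data were the correction without DMSO replicate 1, and members without shared sequence. Python 3.11.15 and matplotlib 3.10.9 were used.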

Additional observations from a re-analysis of the deposited data

How the results depend on the processing

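With all 4 libraries, 0 genes and 0 members passed an adjusted p of 0.05, and under pseudocounts of 0.01 and 1, other filters, TPM, median scaling and no variance trend 0 members passed as well. Leaving out 1 library gave between 5 genes (without DMSO replicate 1) and 1934 genes (without DMSO replicate 2) past the threshold, and between 0 and 15 members. Both upper counts came without DMSO replicate 2, with 15 of 186 members beside 1934 of 22185 genes. The length and GC correction gave 6 genes, and 6 also without DMSO replicate 1, with 0 members each. A fit with 1 library left out takes its spread from the group that keeps 2 libraries. No conclusion is therefore drawn from the counts of such fits. The members' median log2 fold change of 0.20 was 0.13 with a pseudocount of 1, 0.27 with TPM, 0.13 with median scaling, 0.067 with the correction (also with the replicate block) and 0.065 with the correction and without DMSO replicate 1. With 1 library left out it ranged between 0.11 and 0.27. Of the 186 members, 139 were higher with median scaling and 166 with TPM. The median over all genes was 0.10 with TPM and −0.03 with median scaling. Members with both etoposide libraries above were 115, against 28.9% of all genes. With the correction, with or without the replicate block, they were 67, against 23.6%. Members with both below were 7, against 19% of all genes, and 16 with median scaling. With 1 library left out, when such a position is easier to reach, they numbered between 16 and 21. Without DMSO replicate 1 they were 18, against 31.2% of all genes, and 28 with the correction as well. The share of all genes is not given for median scaling, for the other left-out libraries or for the correction without DMSO replicate 1. The counts below under those settings therefore cannot be compared with a background, and no conclusion is drawn from them. As a replicate block, the replicate number gave 0 genes and 0 members past the threshold, with the same median of 0.20. The numbers do not establish pairs, since the replicate differences of the 2 treatments correlated at 0.01 over all genes.

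Directions of named members with small differences turned under some alternatives, and the cause was not tested. With TPM, ZNF274 was at 0.063, ZNF321P at 0.043 and ZNF627 at 0.048, and with median scaling ZNF875 was at −0.032. With the correction, ZNF382 was at −0.0048, also with the replicate block. With the correction and without DMSO replicate 1, ZNF146 was at −0.017, ZNF175 at −0.014, ZNF30 at −0.0059, ZNF317 at −0.025, ZNF350 at −0.12, ZNF274 at 0.011 and ZNF358 at 2.7e-05. With 1 library left out, log2 fold changes ranged from −0.044 to 0.037 for ZNF274, −0.0023 to 0.16 for ZNF317, −0.17 to 0.14 for ZNF321P, −0.080 to 0.26 for ZNF350, −3.32 to 0.025 for ZNF497, −0.35 to 0.012 for ZNF56, −0.073 to 0.036 for ZNF627, −0.36 to 0.023 for ZNF653 and −0.025 to 0.10 for ZNF875. The 10 cluster medians stayed above 0 without DMSO replicate 1 and with the correction, and cluster 7 was at −0.0059 with both together. Members of low level rest on few fragments, and the FPKM give no count for them.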
